A study of Mus musculus with 15 samples.

Results

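The 30 genes described here encode the enzymes that burn fatty acids in mitochondria and peroxisomes, the nuclear receptors of the PPAR family that control them, and a few PPAR target genes of lipid handling. They were taken by name from a list, and all 30 were found among the 55335 genes of the per-mouse files, which pair Ensembl IDs with FPKM values, sequenced fragments divided by transcript length and by the library's size. RNA was sequenced from mouse colon tissue in 3 groups of 5, and all 15 animals had received DSS, dextran sulfate sodium, which injures the colon lining. DSS_ICB_Fp mice had DSS, immune checkpoint blockade (ICB) and a gavage of Faecalibacterium prausnitzii, a butyrate-producing gut bacterium. DSS_ICB mice had DSS and ICB. DSS mice had DSS with no further agent named. The labels do not name the checkpoint antibody, a control antibody, a control gavage, a cage, or the strain, age or sex of the animals, and no group went without DSS. Mice are numbered 1 to 5 in each group in accession order, and a number pairs nothing between groups.

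Fatty acids are activated to acyl-CoA, carried into mitochondria on carnitine, and shortened in cycles of dehydrogenation, hydration, a second dehydrogenation and thiolysis, with electrons passed to the respiratory chain through electron transfer flavoprotein. Peroxisomes run a related pathway on very long and dicarboxylic chains. PPARA and PPARG are ligand-activated receptors that bind DNA with RXR and switch on many of these genes, and PGC-1alpha, the product of Ppargc1a, is their coactivator. Colonocytes are known to draw much of their energy from the oxidation of butyrate and other fatty acids, and colonic PPARG is known as a regulator of epithelial metabolism.

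Epithelial content was gauged with 10 epithelium markers, Krt8 the highest of them, which do not tell colon from other gut epithelium. Their summed level was 5315 to 7760 FPKM in DSS_ICB_Fp, 847 to 7034 in DSS_ICB and 5282 to 6646 in DSS. None of the 58 marker genes was at 0 in all libraries, though Sis reached at most 0.00803 FPKM. Libraries DSS_ICB 3 and DSS_ICB 5 stood apart, with median rank correlations to the other libraries of 0.725 and 0.864, against at least 0.922 for the remaining 13. DSS_ICB 3 held 14.1% of the mean DSS level of the epithelium markers, 502% of that of the 8 smooth muscle markers and 5326% of that of the 8 neutrophil markers, and mitochondrially encoded genes took 33.17% of its FPKM. DSS_ICB 5 held 64.5% of the epithelium markers, 122% of the smooth muscle markers and 2282% of the neutrophil markers. Neutrophil markers summed to 2.48 to 34.8 FPKM in DSS_ICB_Fp, 131 to 2039 in DSS_ICB and 21.8 to 59.5 in DSS. In DSS_ICB_Fp against DSS_ICB, all 8 had a change below 0 and 5 passed in limma, as 0.132% of all genes did. In DSS_ICB against DSS, all 8 had a change above 0 and 0 passed, where 0.0209% of all genes did. Markers of absorptive colonocytes, led by Car1, summed to 1520 to 2415 FPKM in DSS_ICB_Fp, 242 to 1795 in DSS_ICB and 1507 to 2083 in DSS. Car1 makes up much of that sum, and 7 of the 8 markers had a change above 0 with gavage and 8 of 8 a change below 0 with checkpoint blockade, though 0 passed in limma. Slc26a3, the chloride-bicarbonate exchanger of these cells, had 69, 92.4, 86.2, 25.9 and 184 FPKM in DSS_ICB_Fp, 31.6, 22.6, 0.296, 26.3 and 4.84 in DSS_ICB, and 39.4, 59.2, 40.3, 52.2 and 69.5 in DSS. Its log2 change was 2.82 (SE 0.74) with gavage, meaning DSS_ICB_Fp against DSS_ICB (limma adjusted p = 0.0862), and -2.24 (SE 0.74) with checkpoint blockade, meaning DSS_ICB against DSS (limma adjusted p = 0.418). With gavage the log2 changes were 2.0 for Aqp8, 1.65 for Car4 and 1.35 for Slc26a2. For Cdhr5, Ceacam1, Krt20 and Car1 they were 0.73, 0.65, 0.54 and -0.05 in that order. What part these colonocyte markers have in the values of the members was not tested. In whole tissue, fewer cells of a type and less RNA per cell cannot be told apart.

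By group mean, 15 of the 22 enzymes and carriers of oxidation read highest in DSS_ICB_Fp colons and lowest in DSS_ICB colons. How many of all genes had this order was not counted. No member passed the test in any comparison. The test was limma on log2(FPKM + 1), two-sided, with Benjamini-Hochberg adjustment over all 14385 genes that reached 1 FPKM in at least 5 libraries, and a gene passed at an adjusted p under 0.05. It covered 28 of the 30 members. Ppara reached 1 FPKM in 3 libraries and Fabp1 was listed at 0 in all 15, so both stayed out of it. Summed over the 22 enzymes and carriers of oxidation, the level was 601, 615, 570, 561 and 576 FPKM in DSS_ICB_Fp, 550, 563, 356, 547 and 407 in DSS_ICB, and 533, 523, 538, 579 and 570 in DSS. DSS_ICB 3 and 5 lay far below the rest of their group, and the other 3 DSS_ICB colons lay within the DSS range.

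FPKM is scaled by transcript length, so levels can be set beside each other between genes where the deposited estimates hold. Over the 15 libraries the highest means were 77.8 FPKM for Acadl, 58.2 for Etfa and 54.1 for Etfb, the dehydrogenase and the electron carrier it feeds. Next came Acaa2 at 39, Acadvl at 35.6 and Hadh at 35.4 FPKM. The carnitine shuttle genes Slc25a20, Cpt1a and Cpt2 had means of 25.4, 22.3 and 18.6 FPKM. Lowest were Acsl1 and Acadsb at 3.14 each, Pdk4 at 1.7, Angptl4 at 1.27 and Ppara at 0.734 FPKM, above Fabp1, which was listed at 0.

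**Figure D1:**
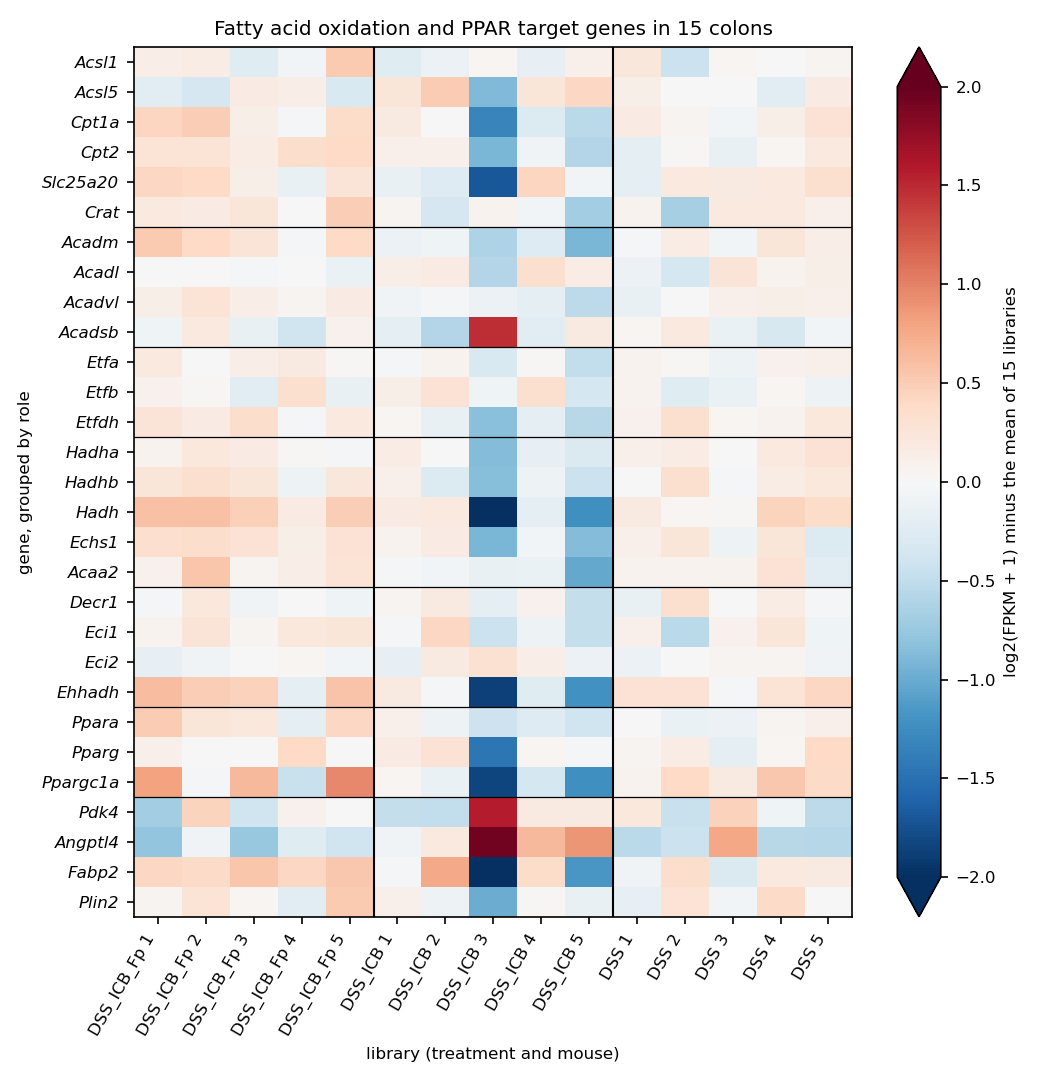
Each cell is 1 gene in 1 colon: log2(FPKM + 1) minus that gene's mean over the 15 libraries, red above and blue below, with the scale ending at 2 in either direction. Rows are the 29 members above 0 grouped by role, columns are mice in the order DSS_ICB_Fp, DSS_ICB, DSS. Blue gathers in DSS_ICB 3, the lowest of all libraries for 16 members, and in DSS_ICB 5, the lowest for 7, while Acadsb, Pdk4 and Angptl4 are red in DSS_ICB 3. Lowest libraries were not counted over all genes.

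With gavage, 21 of 28 members (75%) had a change above 0, where 44.5% of all genes tested did. The median log2 change of the members was 0.35, and of all genes -0.04. Among them 13 were higher at an unadjusted p under 0.05, or 46.4% of the 28, against 9.34% of all genes: Acaa2, Acadm, Acadvl, Cpt1a, Cpt2, Crat, Echs1, Ehhadh, Etfdh, Fabp2, Hadh, Hadhb and Ppargc1a. Only Angptl4 was lower at that level, where 12.4% of all genes were. The groups did not overlap for 4 members with all DSS_ICB_Fp values on top, Acaa2, Acadm, Acadvl and Cpt2, which 0.945% of all genes showed, and for 0 members in the other direction, which 2.46% showed. After adjustment 0 members and 19 genes (0.132%) passed in limma. Without DSS_ICB 3 and 5, 5 members were higher at an unadjusted p under 0.05 (3.65% of all genes were), Acadm, Acadvl, Etfdh, Hadh and Ehhadh, and 2 were lower (14.3% of all genes), Acsl5 and Angptl4. The median log2 change of the members was then 0.21.

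With checkpoint blockade, 7 of 28 members (25%) had a change above 0, where 52.8% of all genes did. The median log2 change of the members was -0.27, and of all genes 0.02. Among them 8 were lower at an unadjusted p under 0.05 (28.6%, against 4.22% of all genes): Acadm, Cpt1a, Ehhadh, Etfdh, Hadh, Hadha, Hadhb and Ppargc1a. Angptl4 alone was higher at that level, where 7.08% of all genes were. All DSS_ICB values lay below all DSS values for 2 members, Acadm and Ppargc1a, as for 0.327% of all genes, and above them for 0 members, as for 1.21%. After adjustment 0 members and 3 genes (0.0209%) passed in limma. Without DSS_ICB 3 and 5, 0 members were lower at an unadjusted p under 0.05 (1.29% of all genes were) and 2, Acsl5 and Etfb, were higher (6.42%), and the members' median was -0.11. The DSS_ICB colons enter both comparisons, so the 2 sets of changes are not independent of each other.

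Changes were smaller between DSS_ICB_Fp and DSS colons. Against DSS, 20 of 28 members (71.4%) had a change above 0, where 47.1% of all genes did, and changes ran between -0.18 for Angptl4 and 0.39 for Fabp2 on the log2 scale with a median of 0.07. At an unadjusted p under 0.05, 0 members were higher and 0 were lower, where 0.591% and 0.82% of all genes were. That fit shares 1 estimate of spread over the 3 groups, including DSS_ICB, the group in which the members varied most. With these 2 groups fitted alone, 2 members were higher (1.9% of all genes were) and 0 lower (2.49%). Without DSS_ICB 3 and 5, 2 members, Cpt2 and Fabp2, were higher (1.98%) and 0 lower (3%). With library quality weights 3 were higher (2.42%) and 0 lower (6.07%). Fabp2 alone did not overlap, with DSS_ICB_Fp on top, as for 0.195% of all genes, and 0 members lay wholly below, as for 0.195%. After adjustment 0 of all genes (0%) passed in limma.

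**Figure D2:**
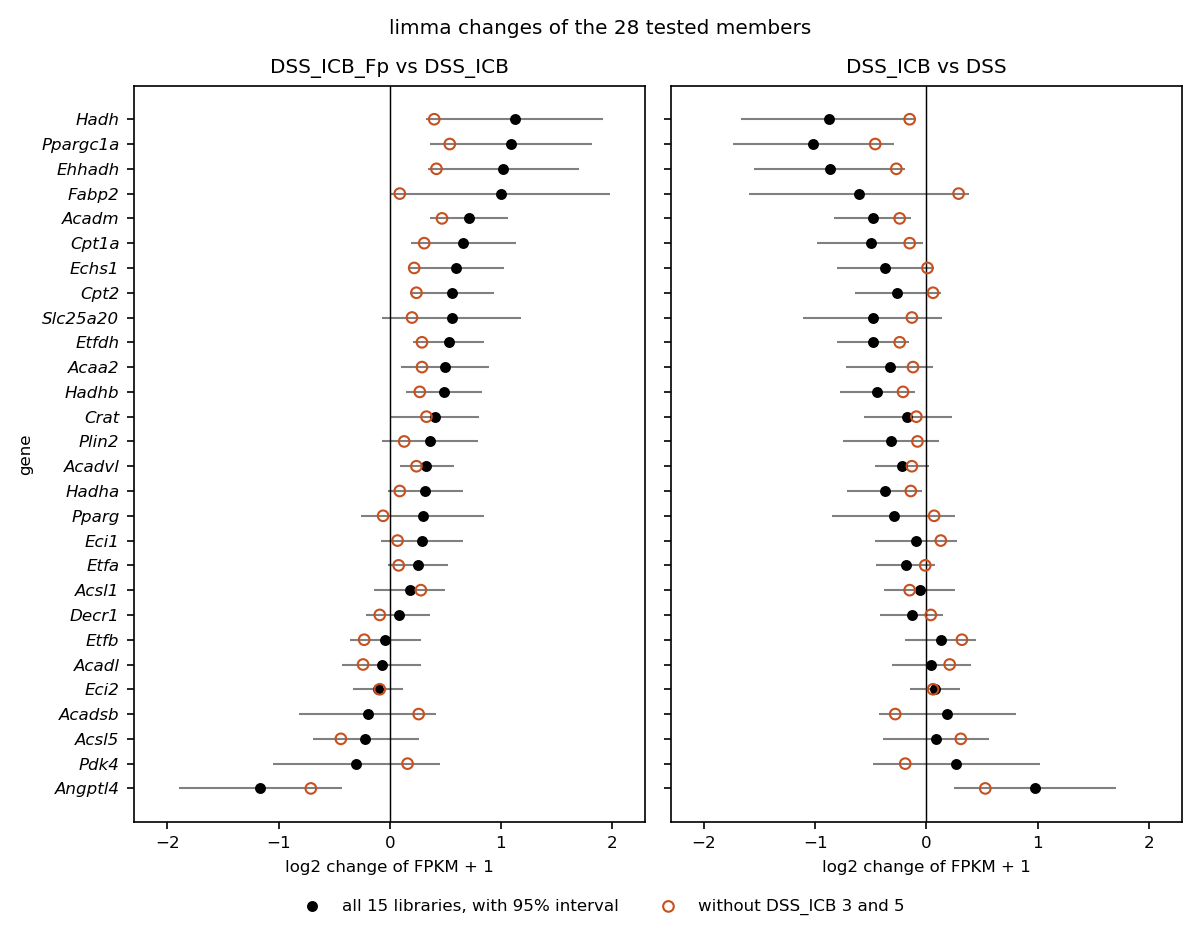
Points are log2 changes of FPKM + 1 for the 28 tested members, DSS_ICB_Fp against DSS_ICB on the left and DSS_ICB against DSS on the right, black with 95% intervals from all 15 libraries and open orange without DSS_ICB 3 and 5. Black points run between -1.17 for Angptl4 and 1.13 for Hadh on the left, and between -1.02 for Ppargc1a and 0.98 for Angptl4 on the right. Most open points lie nearer to 0.

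Fatty acid activation and the carnitine shuttle held 6 members, of which 5 had a change above 0 with gavage and 5 a change below 0 with checkpoint blockade. Cpt1a (ENSMUSG00000024900, chr19:3322334-3385733, plus strand on GRCm38) encodes the outer-membrane carnitine palmitoyltransferase, the rate-setting step of mitochondrial uptake. In mouse order, it had 29.2, 30.6, 23.3, 21 and 27.8 FPKM in DSS_ICB_Fp, 24.3, 21.5, 8.01, 17.6 and 14.5 in DSS_ICB, and 24.1, 22.3, 20.6, 23.4 and 26.5 in DSS. DSS_ICB 3, 4 and 5 were below every other library, while DSS_ICB 1 and 2 lay among the rest. Its log2 change was 0.66 (SE 0.22) with gavage (limma adjusted p = 0.128) and -0.50 (SE 0.22) with checkpoint blockade (limma adjusted p = 0.434). Leaving out DSS_ICB 3 and 5, the 2 values were 0.31 and -0.15.

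Cpt2 (ENSMUSG00000028607, chr4:107903981-107923610, minus strand) encodes the inner-membrane partner that hands the acyl group back to CoA. It had 22.2, 22, 20.1, 23.3 and 24.2 FPKM in DSS_ICB_Fp, 19.6, 19.6, 9.11, 17.2 and 11.7 in DSS_ICB, and 15.7, 18.5, 16.2, 18.7 and 20.8 in DSS. Each DSS_ICB_Fp colon was above each DSS_ICB colon, though the nearest values, 20.1 and 19.6, almost met. The log2 change with gavage was 0.56 (SE 0.18) (limma adjusted p = 0.119), and 0.24 without DSS_ICB 3 and 5. With checkpoint blockade it was -0.26 (SE 0.18), and 0.06 without those libraries. Slc25a20, the carnitine-acylcarnitine translocase of the inner membrane, had 32.6, 32, 26.3, 21.7 and 29.1 FPKM in DSS_ICB_Fp, 21.8, 20.1, 6.73, 32.8 and 23.1 in DSS_ICB, and 20.9, 27.8, 27.6, 27.7 and 30.4 in DSS. DSS_ICB 3 read far below all other libraries and DSS_ICB 4 highest of all, so the DSS_ICB group spanned the whole range.

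Crat, the carnitine acetyltransferase that exports acetyl groups, ranged over 6.07 to 9.02 FPKM in DSS_ICB_Fp, 3.4 to 6.49 in DSS_ICB, and 3.48 to 7.15 in DSS, with a log2 change of 0.41 (SE 0.19) with gavage. Its lowest values were 3.4 in DSS_ICB 5 and 3.48 in DSS 2. The acyl-CoA synthetases activate the fatty acids. Acsl5, the more abundant of them, had 27.1, 25, 35.7, 35 and 25.7 FPKM in DSS_ICB_Fp, 37.8, 45.5, 16.8, 37.9 and 42.7 in DSS_ICB, and 34.7, 31.7, 31.9, 27.3 and 36 in DSS. Apart from DSS_ICB 3, the DSS_ICB colons had the 4 highest values of the 15, and the log2 change with gavage was -0.22 (SE 0.22) with all libraries and -0.44 without DSS_ICB 3 and 5. Acsl1 ranged over 2.46 to 4.89 FPKM in DSS_ICB_Fp, 2.47 to 3.38 in DSS_ICB, and 2.05 to 3.77 in DSS, with its groups overlapping throughout and log2 changes of 0.18 with gavage and -0.06 with checkpoint blockade.

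Among the 4 acyl-CoA dehydrogenases, which open each cycle, Acadm had the smallest p of all members. Acadm (ENSMUSG00000062908, chr3:153922357-153944632, minus strand) encodes the medium-chain enzyme, a PPAR target. It had 33.9, 31.1, 28.2, 23 and 31.1 FPKM in DSS_ICB_Fp, 21.4, 21.9, 14.9, 19.4 and 11.9 in DSS_ICB, and 22.6, 26.1, 22.4, 27.7 and 25.8 in DSS. Every DSS_ICB value lay below every value of both other groups, and 4 of the 5 gavaged colons lay above the whole DSS group. Means were 29.4 ± 4.14 FPKM in DSS_ICB_Fp, 17.9 ± 4.34 in DSS_ICB and 24.9 ± 2.31 in DSS (SD, n = 5 each). On the log2 scale it differed by 0.71 (SE 0.16) with gavage (limma adjusted p = 0.0712) and -0.48 (SE 0.16) with checkpoint blockade (limma adjusted p = 0.418). With DSS_ICB 3 and 5 removed, the changes were 0.47 and -0.24. Acadm passed with gavage in 4 of 26 alternative settings: with library quality weights, and without DSS_ICB 1, DSS_ICB 2 or DSS_ICB_Fp 4.

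The upstream sequence of Acadm is shown because this gene leads the members and its RefSeq window holds the AGGTCA element, the core that PPAR and other nuclear receptors bind. It is the stretch chr3:153944633-153944893 (RefSeq, GRCm38.p6, minus strand), which ends at the first base before the annotated gene. Capitals mark the element, which lies on the opposite strand and so reads as its reverse complement.
Acadm: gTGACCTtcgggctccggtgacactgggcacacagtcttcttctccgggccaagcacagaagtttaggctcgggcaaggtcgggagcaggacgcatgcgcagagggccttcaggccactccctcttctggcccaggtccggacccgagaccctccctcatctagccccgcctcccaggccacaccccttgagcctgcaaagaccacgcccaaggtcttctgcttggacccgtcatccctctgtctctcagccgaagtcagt

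Acadvl (ENSMUSG00000018574, chr11:70010183-70015411, minus strand), the very-long-chain dehydrogenase, had 38.3, 42.8, 38.7, 36.9 and 39.8 FPKM in DSS_ICB_Fp, 33.6, 34.5, 32.4, 31.1 and 24.4 in DSS_ICB, and 31.9, 35.6, 37.8, 38.5 and 37.8 in DSS. All gavaged colons were above all DSS_ICB colons, and DSS_ICB 3 lay with its group while DSS_ICB 5 was lowest. The log2 change with gavage was 0.33 (SE 0.11) (limma adjusted p = 0.132) and 0.24 without DSS_ICB 3 and 5. Acadl, the long-chain dehydrogenase, was the most abundant member, with a mean of 77.8 FPKM over the 15 libraries. It had 76.9, 77.7, 74.7, 76.8 and 69.7 FPKM in DSS_ICB_Fp, 84.4, 86.7, 51.2, 96.5 and 85 in DSS_ICB, and 71, 60.1, 92.4, 80.9 and 83.4 in DSS. DSS_ICB 3 was lowest and DSS_ICB 4 highest, and the log2 changes were -0.07 with gavage and 0.04 with checkpoint blockade.

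Acadsb, the short branched-chain dehydrogenase of isoleucine breakdown, departed from the others. It had 2.65, 3.46, 2.52, 1.94 and 3.12 FPKM in DSS_ICB_Fp, 2.41, 1.59, 9.85, 2.31 and 3.39 in DSS_ICB, and 2.98, 3.47, 2.53, 2.1 and 2.75 in DSS. The value of DSS_ICB 3, 356% of the DSS mean, stood alone, and the other 14 libraries lay between 1.59 and 3.47. Its log2 change with gavage was -0.20 (SE 0.29) with all libraries and 0.26 without DSS_ICB 3 and 5.

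The 3 genes of electron transfer flavoprotein and its oxidoreductase differed in size of change, a difference that was not tested. The flavoprotein, made of the products of Etfa and Etfb, takes electrons from the dehydrogenases and hands them to the oxidoreductase. Etfdh (ENSMUSG00000027809, chr3:79603788-79629500, minus strand), the oxidoreductase that passes them to ubiquinone, had 12.2, 11.4, 13.1, 9.85 and 11.6 FPKM in DSS_ICB_Fp, 10.3, 8.98, 5.19, 8.74 and 6.47 in DSS_ICB, and 10.7, 12.8, 10.3, 10.6 and 11.8 in DSS. DSS_ICB 2, 3, 4 and 5 lay below all 10 libraries of the other groups, and DSS_ICB 1 lay at the bottom edge of DSS. The log2 change was 0.53 (SE 0.15) with gavage (limma adjusted p = 0.0947), and -0.48 (SE 0.15) with checkpoint blockade (limma adjusted p = 0.418). Without DSS_ICB 3 and 5 they were 0.29 and -0.24. Etfa, the alpha subunit, ranged over 58.2 to 66.2 FPKM in DSS_ICB_Fp, 40.8 to 60.5 in DSS_ICB, and 53.9 to 61.8 in DSS, and Etfb, the beta subunit, over 46.3 to 67.5 FPKM in DSS_ICB_Fp, 41.8 to 67.2 in DSS_ICB, and 45.3 to 56.2 in DSS. With gavage the log2 change of Etfa was 0.25 (SE 0.12) and that of Etfb -0.04 (SE 0.15).

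The 5 genes of the hydratase, hydroxyacyl dehydrogenase and thiolase steps all had changes above 0 with gavage and below 0 with checkpoint blockade. Hadh (ENSMUSG00000027984, chr3:131233419-131272101, minus strand), the dehydrogenase for medium and short hydroxyacyl chains, had the widest range among them. It had 48.8, 48.5, 45, 35.9 and 45.3 FPKM in DSS_ICB_Fp, 36.1, 36.7, 5.78, 28.2 and 13.2 in DSS_ICB, and 36.6, 32.9, 32.6, 44 and 41.5 in DSS. DSS_ICB 3 and 5 held 15.4% and 35% of the DSS mean, while DSS_ICB 1 and 2 lay inside the DSS range. Its log2 change was 1.13 (SE 0.37) with gavage (limma adjusted p = 0.123) and -0.88 (SE 0.37) with checkpoint blockade (limma adjusted p = 0.43). Leaving out DSS_ICB 3 and 5, these were 0.40 and -0.15. Echs1, the short-chain enoyl-CoA hydratase, had 13.5, 13.6, 13, 11.5 and 13 FPKM in DSS_ICB_Fp, 11.1, 11.8, 5.08, 10 and 5.3 in DSS_ICB, and 11.3, 12.5, 9.74, 12.6 and 8.53 in DSS. Its log2 change with gavage was 0.60 (SE 0.20) (limma adjusted p = 0.128), and 0.22 without DSS_ICB 3 and 5.

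Acaa2 (ENSMUSG00000036880, chr18:74779197-74806208, plus strand), the mitochondrial thiolase that closes the cycle, had 40.6, 56.1, 39.5, 42 and 46.2 FPKM in DSS_ICB_Fp, 37.6, 36.5, 34.3, 34.7 and 18.2 in DSS_ICB, and 39.8, 40, 39.8, 46.7 and 32.6 in DSS. The gavaged colons were all above the DSS_ICB colons, where DSS_ICB 5 alone lay far down, at 45.8% of the DSS mean. DSS_ICB 3, the library with the fewest epithelial transcripts, kept 86.2% of that mean. The log2 change with gavage was 0.50 (SE 0.18) (limma adjusted p = 0.151), and 0.29 without DSS_ICB 3 and 5.

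Hadha and Hadhb encode the alpha and beta subunits of the mitochondrial trifunctional protein, which carries out the last 3 steps on long chains. Hadhb had 18.2, 19.2, 18.1, 14.1 and 18 FPKM in DSS_ICB_Fp, 16.4, 12.5, 8, 14.1 and 11 in DSS_ICB, and 15.4, 19.3, 14.8, 16.9 and 17.7 in DSS. DSS_ICB 3 and 5 were the lowest libraries, and DSS_ICB_Fp 4 stood below the other gavaged colons. Hadha had 26.3, 29.3, 28.3, 25.6 and 24.8 FPKM in DSS_ICB_Fp, 27.8, 25.3, 13.3, 22.4 and 20.4 in DSS_ICB, and 26.9, 27.9, 25, 28.9 and 30.8 in DSS. The log2 change with gavage was 0.49 (SE 0.16) for Hadhb (limma adjusted p = 0.119) and 0.32 (SE 0.16) for Hadha (limma adjusted p = 0.249). The ratio of Hadhb to Hadha FPKM stayed between 0.496 in DSS_ICB 2 and 0.724 in DSS_ICB_Fp 5, and was 0.599 in DSS_ICB 3.

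The genes of the 2 subunits stand head to head on chromosome 5, Hadha on the minus strand ending at base 30155162 and Hadhb on the plus strand starting at base 30155248. The 85 bases between them, chr5:30155163-30155247 (RefSeq, GRCm38.p6, plus strand), are shown because the annotated genes begin at either edge of this interval. It holds no AGGTCA on either strand.
Hadha-Hadhb: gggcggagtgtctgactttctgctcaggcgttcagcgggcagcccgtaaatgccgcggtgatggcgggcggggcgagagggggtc

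**Figure D3:**
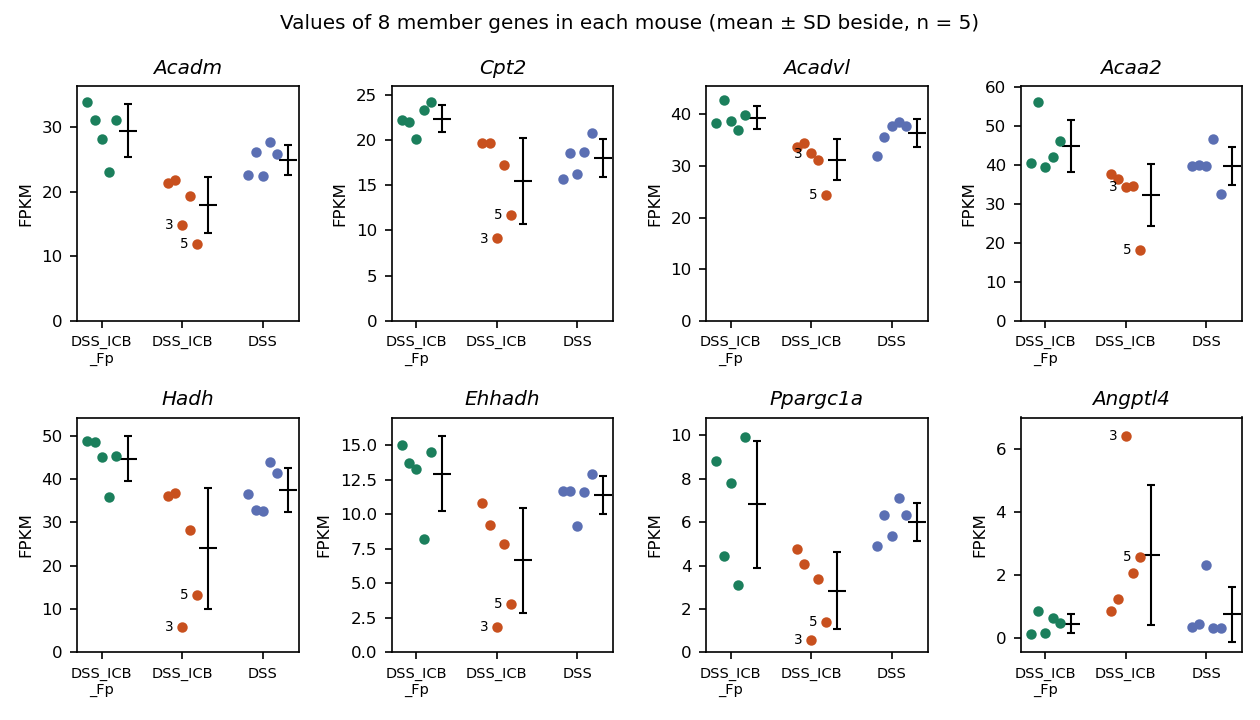
FPKM of 8 members in each colon, DSS_ICB_Fp left, DSS_ICB in the middle and DSS right, with the mean and SD of 5 beside the points, and DSS_ICB 3 and 5 numbered. Acadm, Cpt2, Acadvl and Acaa2 (upper row) do not overlap between DSS_ICB_Fp and DSS_ICB. Hadh, Ehhadh and Ppargc1a have their lowest values in DSS_ICB 3 and 5, and Angptl4 its 2 highest.

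The auxiliary genes handle double bonds and peroxisomal chains. Ehhadh (ENSMUSG00000022853, chr16:21761287-21787807, minus strand), the peroxisomal bifunctional enzyme and a PPARA target, had 15, 13.7, 13.3, 8.24 and 14.5 FPKM in DSS_ICB_Fp, 10.8, 9.23, 1.86, 7.85 and 3.52 in DSS_ICB, and 11.7, 11.7, 9.12, 11.6 and 12.9 in DSS. DSS_ICB 3 and 5 were at 16.3% and 30.9% of the DSS mean, and DSS_ICB_Fp 4 was below the other gavaged colons and below all of DSS. On the log2 scale it differed by 1.02 (SE 0.32) with gavage (limma adjusted p = 0.112) and -0.87 (SE 0.32) with checkpoint blockade (limma adjusted p = 0.43). With DSS_ICB 3 and 5 removed, these were 0.42 and -0.27. The other auxiliary genes had smaller differences between groups. Decr1, the dienoyl-CoA reductase, ranged over 13.9 to 17.2 FPKM in DSS_ICB_Fp, 10.4 to 16.8 in DSS_ICB, and 13.2 to 18.8 in DSS. Eci1, the mitochondrial enoyl-CoA isomerase, ranged over 11.6 to 13.5 FPKM in DSS_ICB_Fp, 7.74 to 15.1 in DSS_ICB, and 7.32 to 13.4 in DSS, and Eci2, its partly peroxisomal relative, over 4.18 to 4.97 FPKM in DSS_ICB_Fp, 4.15 to 6.19 in DSS_ICB, and 4.33 to 5.04 in DSS. Their log2 changes with gavage were 0.08, 0.29 and -0.11 in that order.

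Of the regulators, Ppargc1a (ENSMUSG00000029167, chr5:51454250-51567726, minus strand) differed most. It had 8.8, 4.46, 7.8, 3.09 and 9.94 FPKM in DSS_ICB_Fp, 4.76, 4.09, 0.576, 3.38 and 1.39 in DSS_ICB, and 4.89, 6.34, 5.36, 7.1 and 6.32 in DSS. All DSS_ICB values lay below all DSS values, by a narrow gap between 4.76 and 4.89, and the gavaged colons were split, with mice 1, 3 and 5 above all of DSS and mice 2 and 4 below it. The log2 change was -1.02 (SE 0.34) with checkpoint blockade (limma adjusted p = 0.418) and 1.09 (SE 0.34) with gavage (limma adjusted p = 0.113). Without DSS_ICB 3 and 5 these were -0.46 and 0.54.

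Pparg (ENSMUSG00000000440, chr6:115360951-115490399, plus strand), the receptor named above as the colonic PPAR, had 10.3, 9.6, 9.62, 12.8 and 9.43 FPKM in DSS_ICB_Fp, 10.8, 11.9, 2.85, 9.79 and 9.27 in DSS_ICB, and 9.91, 10.7, 8.27, 9.85 and 12.9 in DSS. All libraries but DSS_ICB 3 lay between 8.27 and 12.9, and DSS_ICB 5 kept 89.8% of the DSS mean. Its log2 change with gavage was 0.30 (SE 0.26) with all libraries and -0.06 without DSS_ICB 3 and 5. Ppara, the receptor that drives fat burning in fasting liver, was low and was not tested. It had 1.43, 1.02, 0.963, 0.492 and 1.28 FPKM in DSS_ICB_Fp, 0.823, 0.593, 0.273, 0.427 and 0.289 in DSS_ICB, and 0.689, 0.548, 0.574, 0.777 and 0.828 in DSS. The 3 values of at least 1 FPKM all came from gavaged colons, and DSS_ICB 3 and 5 were lowest.

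Angptl4 (ENSMUSG00000002289, chr17:33773750-33781830, minus strand), a secreted inhibitor of lipoprotein lipase that is also induced by low oxygen, had its change in the direction opposite to that of 17 of the 22 oxidation genes with gavage. It had 0.127, 0.848, 0.151, 0.642 and 0.481 FPKM in DSS_ICB_Fp, 0.848, 1.23, 6.39, 2.05 and 2.57 in DSS_ICB, and 0.339, 0.448, 2.31, 0.321 and 0.303 in DSS. DSS_ICB 3 and 5 were highest at 858% and 345% of the DSS mean, and DSS 3 was the third highest library. Its log2 change was -1.17 (SE 0.34) with gavage (limma adjusted p = 0.103) and 0.98 (SE 0.34) with checkpoint blockade (limma adjusted p = 0.42). Leaving out DSS_ICB 3 and 5, these were -0.71 and 0.53. Adipocyte markers, led by Cfd, summed to 15.1 to 101 FPKM in DSS_ICB_Fp, 8.13 to 32.9 in DSS_ICB and 8.53 to 56.2 in DSS. With gavage the log2 changes of the 5 tested adipocyte markers ran between 0.04 (SE 1.07) for Cfd and 2.15 (SE 0.64) for Pck1. In DSS_ICB_Fp 1, Pck1 made 18.6 of the 19.4 FPKM of this sum, with Adipoq and Cfd at 0. Macrophage markers, led by Lyz2, summed to 316 to 393 FPKM in DSS_ICB_Fp, 202 to 1062 in DSS_ICB and 379 to 587 in DSS. Since most values of Angptl4 were near or under 1 FPKM, the pseudocount of 1 shrinks its changes.

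Pdk4, the kinase that shuts pyruvate out of oxidation, had 0.523, 2.38, 0.871, 1.61 and 1.48 FPKM in DSS_ICB_Fp, 0.766, 0.747, 6.36, 1.8 and 1.79 in DSS_ICB, and 1.85, 0.807, 2.41, 1.32 and 0.72 in DSS. DSS_ICB 3 alone was high, at 448% of the DSS mean, and the log2 change with gavage was -0.30 (SE 0.35) with all libraries and 0.16 without DSS_ICB 3 and 5. Fabp2, the intestinal fatty acid-binding protein, had 8.77, 8.62, 9.76, 8.86 and 9.72 FPKM in DSS_ICB_Fp, 6.23, 11.5, 0.202, 8.5 and 2.29 in DSS_ICB, and 6.01, 8.36, 5.05, 7.46 and 7.35 in DSS. DSS_ICB 3 held 2.95% of the DSS mean, DSS_ICB 2 was the highest of all libraries, and the gavaged colons lay in a narrow band above DSS. Markers of the small intestine and proximal gut, led by Fabp6, summed to 22.6 to 74.1 FPKM in DSS_ICB_Fp, 2.07 to 20.4 in DSS_ICB and 13.8 to 51.6 in DSS. Over the 15 libraries Fabp6 had a mean of 15.7 FPKM, Rbp2 of 9.19 and Apob of 1.58. Apoa1, Apoa4, Apoc3, Lct and Sis of the same list had means of at most 0.0343. The part of these markers in the values of Fabp2 was not tested. The log2 change of Fabp2 with gavage was 1.0 (SE 0.46) (limma adjusted p = 0.226), and 0.09 without DSS_ICB 3 and 5. Plin2, a coat protein of lipid droplets, had 22.6, 26.4, 22.4, 18.7 and 31.7 FPKM in DSS_ICB_Fp, 23.3, 20.2, 10.4, 22.2 and 19.5 in DSS_ICB, and 19.4, 26.4, 21, 28.6 and 21.8 in DSS. All libraries but DSS_ICB 3 lay between 18.7 and 31.7, and the log2 change with gavage was 0.36 (SE 0.20) with all libraries and 0.13 without DSS_ICB 3 and 5.

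Fabp1, the liver-type fatty acid-binding protein and a classic PPAR target, was listed at 0 in all 15 libraries. Mouse colon is known to express this gene, so the 0 may be a failed estimate in the deposited values and is not read as absence. Promoter windows around RefSeq start sites were searched on both strands for AGGTCA, and for a direct repeat of the looser form AGGNCA with 1 base between the copies, the arrangement that PPAR and RXR bind together. Windows were found for 26 of the 30 members, 29 windows in all. AGGTCA was in a window of 7 members, Acadm, Acadvl, Cpt1a, Echs1, Fabp1, Plin2 and Pparg, and in 16.3% of all 32851 windows. The repeat was in a window of 1 member, Fabp1, and in 0.381% of all windows. Members were counted per gene and these shares per window. A match of letters does not show that a receptor binds there. The stretches before Fabp1, chr6:71199629-71199826 (plus strand), and before Plin2, chr4:86670061-86670309 (minus strand), both RefSeq on GRCm38.p6, are shown for their elements, in capitals and again on the opposite strand.
Fabp1: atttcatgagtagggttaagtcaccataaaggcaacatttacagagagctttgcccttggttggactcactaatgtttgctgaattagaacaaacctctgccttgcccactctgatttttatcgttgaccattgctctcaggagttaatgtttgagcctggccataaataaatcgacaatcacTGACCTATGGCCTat
Plin2: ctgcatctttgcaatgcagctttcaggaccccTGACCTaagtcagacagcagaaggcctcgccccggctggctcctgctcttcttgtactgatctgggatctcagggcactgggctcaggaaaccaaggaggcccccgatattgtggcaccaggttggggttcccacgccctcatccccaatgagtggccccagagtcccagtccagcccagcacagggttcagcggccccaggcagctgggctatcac

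The members varied among mice mainly within DSS_ICB. The median SD of their log2 values was 0.179 in DSS_ICB_Fp, 0.432 in DSS_ICB and 0.182 in DSS, against 0.226, 0.372 and 0.22 over all genes tested. DSS_ICB was the most variable group for 26 of 28 members (92.9%) and for 68.5% of all genes. Among gavaged colons, DSS_ICB_Fp 4 had the lowest value of its group for 14 of 29 members, a count not made over all genes. Cpt1a, Acadm, Hadh, Hadhb, Ehhadh and Ppargc1a were among them. The epithelium markers of that colon summed to the highest value of all libraries. The same colon was lowest of its group for 5 of the 8 absorptive colonocyte markers, with 25.9 FPKM of Slc26a3 against 69 to 184 in the other gavaged colons and 34.3 FPKM of Aqp8 against 84.6 to 265. Its neutrophil markers summed to 34.8 FPKM, the highest of its group. The part of these markers in its low members was not tested.

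The summed FPKM of the oxidation genes was also divided by that of the epithelium markers. Both sums come from whole tissue, so the ratio is not a share within epithelial cells. The 22 oxidation genes summed to 9.42, 10.6, 9.13, 7.24 and 10.8 FPKM per 100 FPKM of epithelium markers in DSS_ICB_Fp, 9.28, 8.01, 42, 12.7 and 10.5 in DSS_ICB, and 8.84, 8.92, 10.2, 9.26 and 8.58 in DSS. All libraries but DSS_ICB 3 lay between 7.24 and 12.7, and the groups overlapped. DSS_ICB 3 kept 64.9% of the summed DSS mean of the oxidation genes with 14.1% of the epithelium markers. With the mean log2 level of the epithelium markers as a covariate, 12 members were higher and 3 lower with gavage at an unadjusted p under 0.05 (4.47% and 17% of all genes), 0 passed in limma, and the members' median log2 change was 0.23. With checkpoint blockade 2 were higher and 3 lower (7.96% and 1.77% of all genes), with a median of -0.14. What part the makeup of the tissue has in the members' changes was not tested beyond these values.

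**Figure D4:**
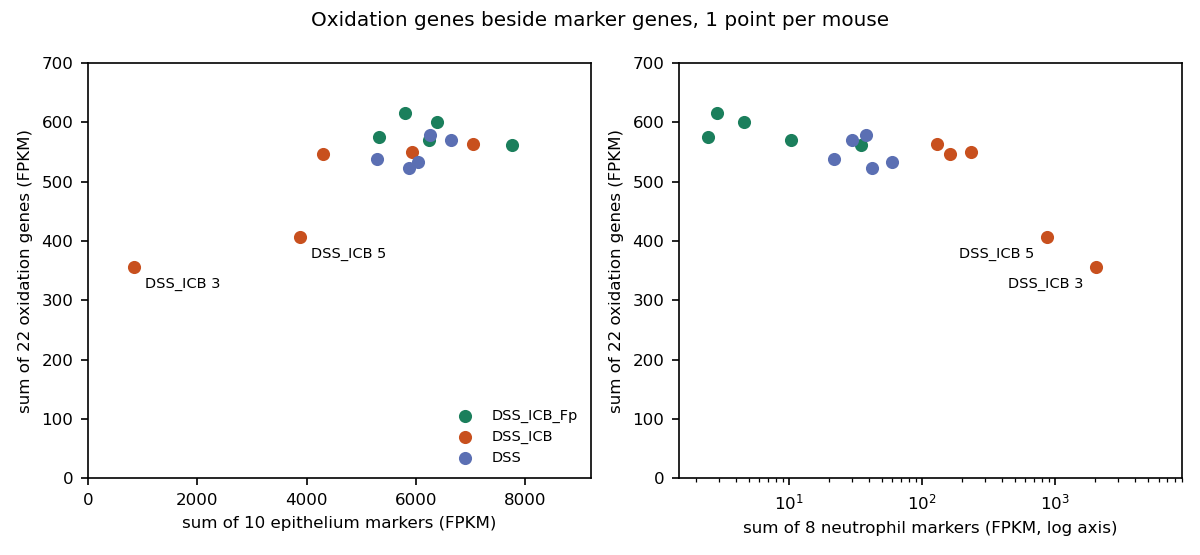
Summed FPKM of the 22 oxidation genes in each colon against the summed FPKM of 10 epithelium markers (left) and of 8 neutrophil markers (right, log axis). The other 13 colons lie between 523 and 615 FPKM, while DSS_ICB 3 and 5 lie at 356 and 407, with the lowest epithelium sums and the highest neutrophil sums.

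Further genes of the same pathways were counted from 2 lists. Of 36 other oxidation genes 32 were tested and 0 passed. With gavage 28 of the 32 had a change above 0, with a median log2 change of 0.30, and 14 were higher and 1 lower at an unadjusted p under 0.05. Of all genes tested, 44.5% had a change above 0, 9.34% were higher and 12.4% lower. With checkpoint blockade 26 had a change below 0, with a median of -0.23, and 6 were lower and 1 higher, where 4.22% of all genes were lower and 7.08% higher. Of 41 PPAR target, lipid droplet and co-regulator genes 32 were tested and 0 passed. With gavage 16 had a change above 0 and 16 below, with 7 higher and 3 lower at an unadjusted p under 0.05, beside the same 9.34% and 12.4% of all genes. With checkpoint blockade the split was again 16 and 16, with 5 higher and 0 lower, beside 7.08% and 4.22%.

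By the smallest p, Pcca, a subunit of propionyl-CoA carboxylase, led the genes that were higher with gavage. It had 6.34, 6.77, 6.35, 4.86 and 7.52 FPKM in DSS_ICB_Fp, 5.36, 3.38, 3.74, 5 and 3.3 in DSS_ICB, and 5.67, 5.85, 5.55, 6.16 and 5.16 in DSS, and differed by 0.52 (SE 0.13) on the log2 scale, which did not pass (limma adjusted p = 0.0848). Acads, the short-chain acyl-CoA dehydrogenase, had 41.2, 48.7, 37.3, 36.7 and 43.2 FPKM in DSS_ICB_Fp, 24, 38.9, 9.75, 17.1 and 8.95 in DSS_ICB, and 22.5, 19.9, 23.5, 38.8 and 37.4 in DSS. DSS_ICB 3 and 5 were lowest, and its log2 change with gavage was 1.22 (SE 0.33) (limma adjusted p = 0.0873). Acad10, a further dehydrogenase of the family, had log2 changes of 0.60 (SE 0.15) with gavage and 0.35 (SE 0.15) for DSS_ICB_Fp against DSS. Acsl3, an acyl-CoA synthetase, and Pccb, the partner of Pcca, had log2 changes of -1.15 (SE 0.40) and -0.81 (SE 0.34) with checkpoint blockade (limma adjusted p = 0.418 and 0.43). DSS_ICB 3 and 5 were the lowest libraries for both, with 6.05 and 19.3 FPKM of Acsl3 and 5.93 and 12.5 of Pccb. The remaining DSS_ICB colons had 22.5 to 56.8 and 24.6 to 30.5, beside 43.9 to 58.2 and 25.7 to 41.6 in DSS.

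In the direction of Angptl4, the other pathway genes with the smallest p with gavage were Fabp5, G0s2 and Hilpda. G0s2, an inhibitor of adipose triglyceride lipase, had 2.58, 6.13, 1.7, 3.82 and 5.34 FPKM in DSS_ICB_Fp, 8.86, 7.87, 51.3, 5.42 and 25.7 in DSS_ICB, and 4.38, 4.02, 3.18, 4.43 and 2.29 in DSS. Every DSS_ICB value was above every DSS value, and DSS_ICB 3 and 5 were far above the rest. These 2 colons also had the highest neutrophil marker sums, 2039 and 874 FPKM, and the part of those cells in the values of G0s2 was not tested. Its log2 change was -1.71 (SE 0.47) with gavage (limma adjusted p = 0.0924) and 1.72 (SE 0.47) with checkpoint blockade (limma adjusted p = 0.381). Hilpda, a droplet protein that inhibits the same lipase, had log2 changes of -1.02 (SE 0.28) and 0.90 (SE 0.28). Fabp5, the epidermal fatty acid-binding protein, had 1.75, 2.31, 2.91, 3.84 and 3.64 FPKM in DSS_ICB_Fp, 5.31, 5.52, 6.96, 7.46 and 15.5 in DSS_ICB, and 5.16, 5.66, 4.93, 2.53 and 2.68 in DSS. All gavaged colons were below all DSS_ICB colons, and its log2 change with gavage was -1.17 (SE 0.27) (limma adjusted p = 0.0712). Against DSS, DSS_ICB_Fp had its smallest p upward at Acad10, Rxra (the PPAR partner receptor) and Pdk2, with log2 changes of 0.35, 0.32 and 0.51. Downward these were Fabp5, Cd36 (a fatty acid uptake receptor) and Acsl4, with -0.40, -0.32 and -0.25.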

How the data were processed

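RNA was sequenced from 15 mouse colons, and each file holds 1 mouse. Per the submitters' processing notes, FastQC, STAR 2.5, Cuffnorm and DESeq were used with mm10. The authors deposited FPKM per gene, a unit inferred from Cuffnorm and from fractional values that total 341054 to 443338 in a library. Any further scaling between libraries is not given in the sources used here. Depth, estimated from the steps between low FPKM values, was 15.46 to 25.02 M fragments (M, mega) if no further scaling was applied. Between 34.1% and 40.1% of low values fell on such steps, so whole reads were not recovered and no count test was used. Of the 55335 genes, 55154 had a symbol in GENCODE M21 on GRCm38.

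Genes of at least 1 FPKM in at least 5 libraries were tested on log2(FPKM + 1), which understates changes of low genes, with limma 3.58.1 in R 4.3.3 (trend and robust), 1 mean per group over all 15 libraries, two-sided, adjusted by Benjamini-Hochberg over 14385 genes at 0.05. The script was tested on simulated data. Replicates are separate mice by their labels. Alternatives were other scalings (median of ratios, upper quartile, without mitochondrially encoded genes), pseudocounts of 0.1 and 10, no filter or 5 FPKM, 2 groups only, library quality weights, an epithelial marker covariate, and leaving out each library or DSS_ICB 3 and 5. The members, the lists of other pathway genes and the marker lists (absorptive colonocyte, epithelium, smooth muscle, adipocyte, neutrophil, macrophage, small intestine and proximal gut) were chosen with earlier results of these data known. All members are named. Of the other pathway genes, the 3 with the smallest p in each direction of a comparison are named. Python 3.11.15 was used for tables and for the promoter search.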

Additional observations from a re-analysis of the deposited data

Results flagged for a closer look

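In 87 groups of 5 values (29 members in 3 treatments, on the log2 scale), 13 had a highest or lowest colon that lay apart from its group by more than 0.71 of the group's range. Chance flags about 1 in 20 groups of independent, normally spread values. The 29 members share the same 15 libraries, and flags were not counted over all genes. The count therefore does not show an excess particular to these genes.

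Among these, 4 were low values of DSS_ICB 3. Acsl5 was 16.8 FPKM there, against 37.8 to 45.5 in the other DSS_ICB colons. Acadl was 51.2, against 84.4 to 96.5. Pparg was 2.85, against 9.27 to 11.9, and Plin2 was 10.4, against 19.5 to 23.3. In DSS_ICB 5, Acaa2 was 18.2 FPKM, against 34.3 to 37.6.

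Another 4 came from DSS_ICB_Fp 4. Hadhb was 14.1 FPKM there, against 18 to 19.2 in the other gavaged colons. Hadh was 35.9, against 45 to 48.8, and Ehhadh was 8.24, against 13.3 to 15. Pparg was high at 12.8, against 9.43 to 10.3. In DSS_ICB_Fp 2, Decr1 was high at 17.2 FPKM, against 13.9 to 14.7.

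The remaining 3 were DSS colons. Slc25a20 was 20.9 FPKM in DSS 1, against 27.6 to 30.4 in the other DSS colons. Crat was 3.48 in DSS 2, against 6.44 to 7.15. Angptl4 was high at 2.31 in DSS 3, against 0.303 to 0.448.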

How the results depend on the processing

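No paired analysis was possible because the mice carry numbers in accession order that match nothing between groups. With checkpoint blockade, 3 genes passed, and 1 did under upper-quartile scaling, a pseudocount of 10, no filter, a filter at 5 FPKM, 2 groups only or the epithelial covariate, and 0 with a pseudocount of 0.1. Leaving out 1 library gave 0 to 7. With gavage, 19 genes passed, against 42 and 5 with pseudocounts of 0.1 and 10, 7 without a filter, 11 with the filter at 5 FPKM, 0 with 2 groups only, 964 with library quality weights and 6 with the epithelial covariate. Leaving out 1 library gave 5 to 598, the most without DSS_ICB 1 (598), DSS_ICB_Fp 4 (449), DSS_ICB 2 (153) and DSS_ICB 4 (75). Members passing with gavage numbered 0, but 3 with library quality weights (Acadm, Ehhadh and Etfdh) and 0 to 5 when 1 library was left out: 5 without DSS_ICB 1 (Acadm, Angptl4, Ehhadh, Etfdh and Hadhb), and 1, Acadm, without DSS_ICB 2 or without DSS_ICB_Fp 4. The cause was not tested. In the other comparisons 0 members passed under any alternative.

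Some members changed sign. With checkpoint blockade, log2 changes without DSS_ICB 3 and 5 were 0.06 for Cpt2, -0.28 for Acadsb, 0.01 for Echs1, 0.04 for Decr1, 0.13 for Eci1, 0.07 for Pparg, -0.19 for Pdk4 and 0.29 for Fabp2. With quality weights they were -0.13 for Acadsb, 0.01 for Decr1, -0.01 for Pdk4 and 0.05 for Fabp2. With the epithelial covariate they were -0.25 for Acadsb, 0.04 for Eci1, 0.11 for Pparg, -0.19 for Pdk4 and 0.05 for Fabp2. When 1 library was left out, Acsl1 ran between -0.16 and 0.00, Acsl5 between -0.01 and 0.33, Acadl between -0.05 and 0.20, Acadsb between -0.15 and 0.37, Pparg between -0.41 and 0.02, and Pdk4 between -0.08 and 0.44.

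With gavage, values without DSS_ICB 3 and 5 were 0.26 for Acadsb, -0.09 for Decr1, -0.06 for Pparg and 0.16 for Pdk4. With quality weights they were 0.18 for Acadsb, -0.01 for Decr1 and -0.01 for Pparg, and with the epithelial covariate 0.30 for Acadsb, -0.15 for Pparg and 0.22 for Pdk4. Etfb was 0.01 under median-of-ratios scaling. When 1 library was left out, Acadsb ran between -0.38 and 0.14, Etfb between -0.15 and 0.02, Decr1 between -0.02 and 0.14, Pparg between -0.01 and 0.42, and Pdk4 between -0.47 and 0.04.

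For DSS_ICB_Fp against DSS, Acadsb was 0.00 under median-of-ratios scaling, 0.05 with quality weights and 0.05 with the covariate. Pparg was -0.01 without mitochondrially encoded genes, -0.05 with quality weights and -0.05 with the covariate, where Pdk4 was 0.03. When 1 library was left out, Slc25a20 ran between -0.01 and 0.16, Acadl between -0.12 and 0.03, Acadsb between -0.08 and 0.07, Decr1 between -0.11 and 0.01, Pparg between -0.06 and 0.08, Ppargc1a between -0.07 and 0.28, Pdk4 between -0.17 and 0.11, Angptl4 between -0.28 and 0.07, and Plin2 between -0.05 and 0.13. Since depth is only estimated, levels near or under 1 FPKM, as for Ppara, Angptl4 and Pdk4, rest on few fragments.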

Other observations

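Some other genes that PPARA is known to control in mouse liver were low or listed at 0 in these colons. Cyp4a14 and Cyp4a31, fatty acid omega-hydroxylases, were listed at 0 in all 15 libraries, and their relative Cyp4a10 reached at most 0.0281 FPKM. A value listed at 0 may be a failed estimate and does not show absence.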
